A study of Mus musculus with 8 samples.

Results

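The loci of 10 genes of the stem cell and myeloid programmes were examined in pre-B cells in which IKZF1 was induced: Spi1, Cebpa, Cebpb, Csf1r, Gfi1, Meis1, Flt3, Kit, Cd34 and Hoxa9. An ATAC-seq peak was counted at a locus when its summit lay in the gene body or within 20 kb of it (GRCm38, GENCODE M21 annotation). By this rule 506 of the 767727 peaks of the 8 peak lists belonged to the 10 loci, and they merged into 106 of the 174718 regions of the series. ATAC-seq marks open chromatin through DNA cuts made by the Tn5 transposase, and was run on the mouse pre-B line B3 carrying a transduced Ikaros-ERt2. In this fusion IKZF1 (Ikaros) is tied to the hormone-binding domain of the estrogen receptor and enters the nucleus when 4-hydroxytamoxifen (4-OHT) is added. The 2 libraries of the 0 h group had no treatment. Exposure to 500 nM 4-OHT lasted 30 min, 1 h or 2 h in the others, with 2 libraries each, all from the same transduced line. No 4-OHT or solvent control without the fusion was among the 8 libraries, so IKZF1 and the drug cannot be told apart. The labels do not say whether the replicates were separate cultures, so p-values measure the spread between these libraries only.

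Blood stem cells and myeloid cells rely on a set of transcription factors and growth factor receptors that B cell precursors keep low or silent. PU.1, encoded by Spi1, is an ETS family factor needed for myeloid and B cells alike, at a higher dose in the former. C/EBPα (Cebpa) and C/EBPβ (Cebpb) drive granulocyte and macrophage genes and can turn B cells into macrophages when forced on. GFI1 is a repressor that restrains stem cell division and steers granulocyte fate, and MEIS1 and HOXA9 are homeobox factors that sustain stem cells and many leukaemias. CSF1R, FLT3 and KIT are receptor tyrosine kinases for macrophage colony stimulating factor, FLT3 ligand and stem cell factor, and CD34 is a surface sialomucin of stem and progenitor cells. IKZF1 is a zinc finger factor of lymphoid cells that binds DNA through a core of GGGAA and can silence genes.

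Some of the regions described below are shown first. Each sequence is the 200 bp around the summit on the plus strand of GRCm38, taken from the RefSeq copy of that genome. A region is named by its gene and by the distance in bp from the nearest start site of that gene to its summit, negative upstream. Capitals mark the word GGAA or its reverse complement TTCC, and the word GGGA or its reverse complement TCCC. They make up the IKZF1 core on either strand, and GGGAA holds 2 of them. Cebpb_-16404 (chr2:167672411-167672610) gained accessibility rank and Flt3_-18100 (chr5:147418489-147418688) lost it. Flt3_+61352 (chr5:147339037-147339236), Meis1_+93638 (chr11:18924976-18925175) and Cd34_-12869 (chr1:194925850-194926049) were peaks of untreated cells that were absent from at least 1 list of 2 h. Spi1_-13022 (chr2:91082974-91083173) is shown as a strong region upstream of the main Spi1 start site that was not called.
Cebpb_-16404: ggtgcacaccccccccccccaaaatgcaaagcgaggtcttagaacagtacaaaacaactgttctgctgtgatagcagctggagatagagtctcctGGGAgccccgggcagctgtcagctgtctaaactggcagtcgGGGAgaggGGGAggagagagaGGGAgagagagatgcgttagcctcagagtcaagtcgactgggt
Flt3_-18100: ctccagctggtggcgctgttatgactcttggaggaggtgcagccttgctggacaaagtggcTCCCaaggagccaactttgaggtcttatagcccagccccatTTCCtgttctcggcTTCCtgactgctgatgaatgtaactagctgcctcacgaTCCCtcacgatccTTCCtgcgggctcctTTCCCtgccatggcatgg
Flt3_+61352: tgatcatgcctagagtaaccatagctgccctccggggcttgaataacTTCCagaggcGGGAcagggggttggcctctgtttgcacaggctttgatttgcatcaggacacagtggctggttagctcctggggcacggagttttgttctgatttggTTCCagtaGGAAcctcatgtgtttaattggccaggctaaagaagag
Meis1_+93638: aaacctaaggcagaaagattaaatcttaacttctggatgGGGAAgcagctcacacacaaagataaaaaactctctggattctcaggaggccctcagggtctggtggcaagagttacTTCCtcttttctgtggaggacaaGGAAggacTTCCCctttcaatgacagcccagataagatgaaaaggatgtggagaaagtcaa
Cd34_-12869: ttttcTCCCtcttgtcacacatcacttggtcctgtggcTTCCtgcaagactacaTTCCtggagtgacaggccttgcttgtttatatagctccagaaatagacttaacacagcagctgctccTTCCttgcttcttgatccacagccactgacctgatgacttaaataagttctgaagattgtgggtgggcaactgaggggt
Spi1_-13022: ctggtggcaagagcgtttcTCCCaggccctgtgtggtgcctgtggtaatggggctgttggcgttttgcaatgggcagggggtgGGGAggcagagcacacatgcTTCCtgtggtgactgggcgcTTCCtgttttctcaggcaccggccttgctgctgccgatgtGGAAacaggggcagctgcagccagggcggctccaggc

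Flt3_-18100 held 7 of these words and Meis1_+93638 held 6. Spi1_-13022 held 5, and Cebpb_-16404, Flt3_+61352 and Cd34_-12869 held 4 each. Over all 47875 regions with a peak in each of the 8 lists the mean was 4.30 ± 2.33 words (SD), against 6.07 in the 2256 of them called lower in rank at 2 h and 2.90 in the 1092 called higher. The 36 such regions of the 10 loci had 4.58 ± 1.92 words. A word match is a description of the letters and not a measured binding site.

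A further set of words was counted on both strands of the same windows. GAGGAA, a word within ETS factor sites that contains GGAA, stood in 9 of the 36 regions and in 23.7% of all 47875. TGTGGT, the core word of RUNX factors, stood in 7 of the 36 and in 23.4% of all. TTGCNNAA, a C/EBP word, stood in 6 of the 36 and in 7.35% of all.

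The lists held 85903 to 103897 peaks each, with a background of 0.26 to 0.405 fragments per base and a median of 11 to 14 fragments at the summit. These fragments were recovered from the deposited fold and p-value of each peak, which gave a whole number for every peak in each list. The lowest background, 0.26, was that of the second library of 0 h, and the first of 0 h had 0.389. Fragments of single regions given below are not scaled for this. Of 12 pre-B marker genes, 8 had a start-site peak in all 8 lists, among them Cd79a, Pax5, Ebf1, Igll1 and Il7r, whereas Dntt had none. Of 6 myeloid markers none had a start-site peak in all lists, and Mpo, Elane, Itgam, Csf3r and Cd14 had none in any. None of 6 T cell and 5 erythroid markers had one in all 8 lists, although Cd3g had one in 7 and Cd4 and Epor in 4 each. Of 5 genes of cells outside blood only Col1a1 did.

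Most of the 10 genes had no called peak at a start site in these cells. Spi1 and Gfi1 had a peak within 1 kb of a start site in all 8 lists, and the other 8 genes had none in any list. Over 21924 protein-coding genes, 46.1% had such a peak in all 8 lists and 44.9% had none. The 106 regions therefore lay away from the start sites of the 10 genes almost throughout, though some lay at those of other genes. Only 3 lay within 1 kb of the gene's own start site, 57 were in introns, 38 lay outside the transcripts of the basic annotation set, 3 of these inside the full Spi1 gene model, and 37 were nearer to the start site of another coding gene. Of the 106 regions, 36 had a peak in all 8 lists (34.0%, against 27.4% over the series), and 26 had a peak in 1 list.

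**Figure D1:**
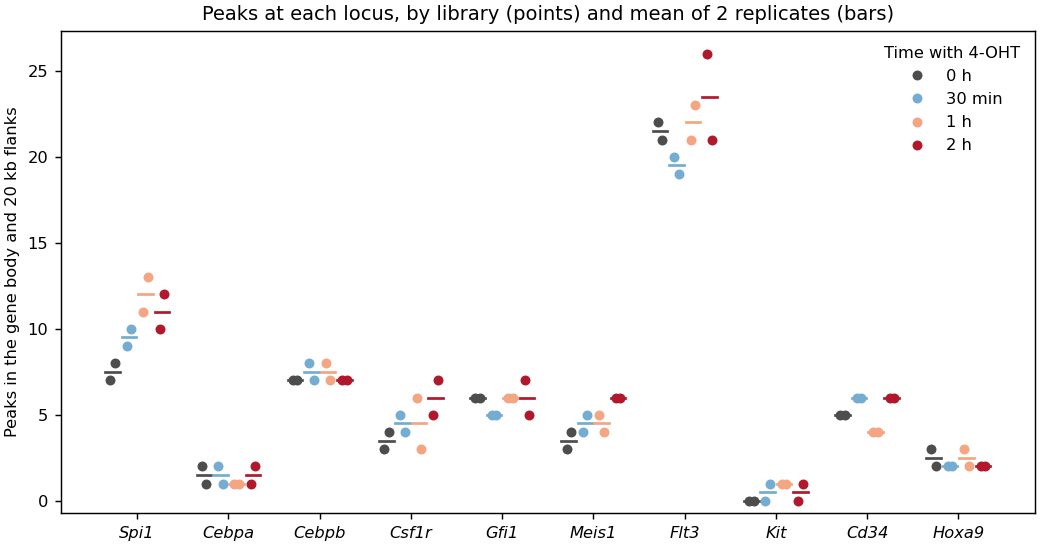
Number of peaks in the gene body and 20 kb flanks (vertical axis) at each of the 10 loci (horizontal axis), with a point for each library, a bar for the mean of 2 replicates and colours for the time with 4-OHT. Flt3 held 19 to 26 peaks in every library, and Kit held 0 or 1.

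The loci differed widely in how much open chromatin they held. Flt3, whose window spans 109.7 kb, had 37 regions and 19 to 26 peaks per library. Kit, with a longer window of 121.8 kb, had 2 regions and no peak in 4 of the 8 libraries, among them both of 0 h. Its intron region Kit_+14779 had 4 and 5 fragments in the libraries of 1 h and 6 in the second of 2 h, and Kit_+94805 had 6 in the second library of 30 min. The Spi1 locus had 7 and 8 peaks at 0 h and 9 and 10 after 30 min. It had 11 and 13 after 1 h, then 10 and 12 after 2 h. Some of the peaks absent at 0 h had few fragments, such as 5 to 7 at Spi1_-6968. The share of all gene loci with such a rise was not counted, and the lists of 2 h were longer than those of 0 h. The 10 loci together held 58 and 58 peaks at 0 h and 70 and 69 at 2 h, in lists of 93936 and 85903 and of 103897 and 99060 peaks.

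Changes over time were tested on ranks. Each of the 47875 regions present in all 8 lists was ordered within each list by the fold of its peak over background, the ranks were turned into normal scores and limma compared each time with 0 h, with Benjamini-Hochberg adjustment over all regions and a two-sided threshold of 0.01. A score difference of 1 is 1 SD of the regions of a list. Percentiles given below are within all peaks of a list, 100 being the highest fold. Ranks are relative: the median of fragments over background, on the log2 scale, was 0.22 higher at 2 h than at 0 h over all tested regions, and the ranks remove that shift.

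At 30 min, none of the 36 regions was called lower or higher by limma, and neither was any of the 47875 (0.0% in each direction). With an unadjusted p under 0.05, 2 of the 36 were lower (5.56%, against 9.94% of all) and 4 higher (11.1%, against 9.51% of all) at 30 min. At 1 h, 0 of 36 were lower, where 2.51% of all tested regions were, and 1 of 36 was higher, where 1.1% of all were. Unadjusted p under 0.05 was reached at 1 h by 4 lower regions of the 36 (11.1%, against 15.5% of all) and by 8 higher ones (22.2%, against 14.9% of all). At 2 h, 1 of 36 was called lower (2.78%, against 4.71% of all) and 1 higher (2.78%, against 2.28% of all). The called shares at 2 h were therefore of the size of the background, and nothing particular to the 10 loci is read from them. Both percentiles of 2 h lay below both of 0 h in 8 of the 36 regions (22.2%, against 24.3% of all) and above both in 18 (50.0%, against 40.6% of all).

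From 0 h to 2 h the percentile of the 36 regions changed by a median of 5.02 points, with 22 up and 14 down, and that of all tested regions by 3.66. The single changes ran from -31.95 to 52.19 points. Without the 20 kb flanks, 17 tested regions remained and their median change was -2.27 points, so the direction of the median rested on the flanks.

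**Figure D2:**
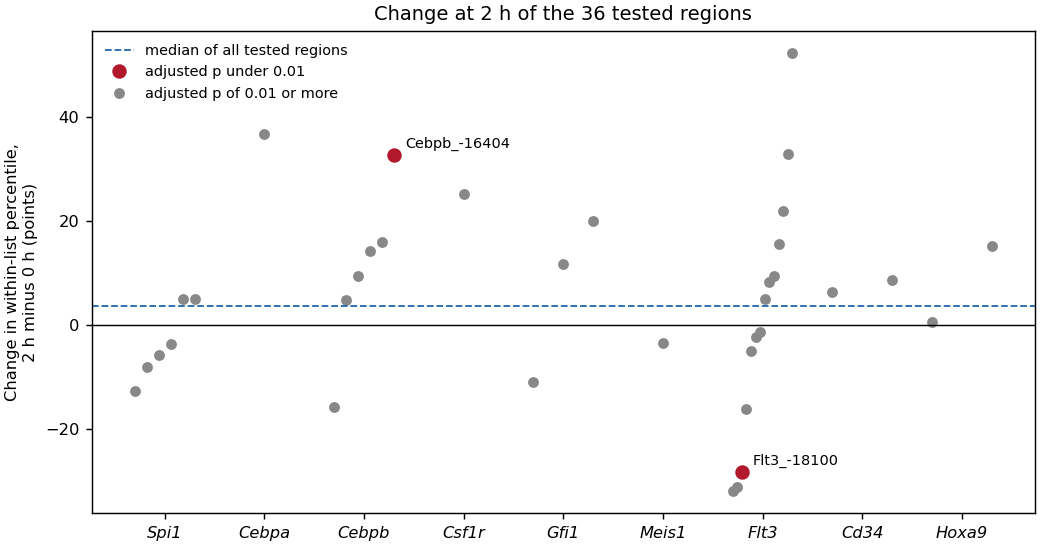
Change in mean within-list percentile from 0 h to 2 h (vertical axis, points) of each of the 36 tested regions by gene (horizontal axis). Red points passed an adjusted p of 0.01, and the dashed line is the median of all tested regions, 3.66. The regions of Flt3 spread from -31.95 to 52.19, wider than those of any other locus shown. Flt3 had 14 tested regions and the other loci 1 to 6, and a range widens with the number of regions.

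Among the transcription factors, Cebpb held the 1 region called higher, at 1 h and at 2 h. This region, Cebpb_-16404 (chr2:167672312-167672654), lay between genes and, among coding genes, nearest to the start site of Tmem189. It had 17 and 11 fragments in untreated cells, 31 and 32 after 30 min, 42 and 45 after 1 h, then 50 and 53 after 2 h. All 6 treated libraries were above both untreated ones, and the later times were higher than the earlier ones without overlap. Its percentile went from 63.8 ± 6.7 to 96.4 ± 1.8 (SD, n = 2 each), a score difference of 1.68 ± 0.29 (SE, limma adjusted p = 0.0043), after an adjusted p of 0.0088 at 1 h. The call at 2 h was lost without either library of 0 h or of 2 h (limma adjusted p up to 0.040), and the call at 1 h was lost without any 1 of the 8 libraries (0.011 to 0.069).

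Of the other 5 tested regions of Cebpb, 4 lay above their 0 h percentiles in both libraries of 2 h and 1 lay below. Over all tested regions 40.6% lay above and 24.3% below in this way, and none of the 5 was called on ranks. The strongest, Cebpb_+9090 in an intron of A530013C23Rik, had 47 and 38 fragments in untreated cells against 86 and 84 after 2 h, at percentiles of 93.6 and 94.0 and then 98.2 and 98.9 (limma adjusted p = 0.087). Cebpb_-8838 had 29 and 19 fragments in untreated cells against 57 and 56 after 2 h (adjusted p = 0.078). The region with the most negative change, Cebpb_-13551, had percentiles of 25.2 and 38.8 and then 15.2 and 17.2, although its fragments were 11 and 10 in untreated cells against 15 and 15 after 2 h (adjusted p = 0.14). No peak stood within 1 kb of the Cebpb start site in any list.

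Cebpa, the related factor, had 1 region in all 8 lists, Cebpa_+5668 (chr7:35124895-35125054), which lay between genes downstream of the gene. Its fragments were few, with 7 and 6 in untreated cells, 12 and 12 after 30 min, 14 and 11 after 1 h, then 13 and 15 after 2 h. All treated libraries exceeded the untreated ones, and the percentile went from 32.2 ± 1.4 to 68.9 ± 5.9 (SD, n = 2 each), but the region did not pass the threshold (limma adjusted p = 0.031).

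At Spi1 the chromatin was open before induction, and none of its 6 tested regions was called. Spi1_-13022 (chr2:91082922-91083231), upstream of the start sites of the basic transcript set but inside the full gene model, had 51 and 42 fragments in untreated cells against 53 and 47 after 2 h, with percentiles of 88.0 and 92.1 at 0 h and 83.8 and 84.7 at 2 h (limma adjusted p = 0.28). The start-site region, Spi1_+609 (chr2:91096522-91096831), had 61 and 39 fragments in untreated cells, 53 and 34 after 30 min, 38 and 26 after 1 h, then 46 and 28 after 2 h. Its percentile was 85.1 ± 4.8 at 0 h and 72.5 ± 12.9 at 2 h (SD, n = 2), the most negative change among the regions of Spi1, and the difference did not pass (adjusted p = 0.15). The intron region Spi1_+5471 had the highest mean percentile of the locus over all 8 lists, with 54 and 49 fragments in untreated cells against 58 and 64 after 2 h (adjusted p = 0.54). The largest positive change was at Spi1_-25621, 58 bp from the start site of Slc39a13, where 67 and 51 fragments became 86 and 74 (adjusted p = 0.49). Spi1_-30386 (chr2:91065663-91065768), in a coding exon where the Slc39a13 and Psmc3 gene models overlap, had no peak in either 0 h list, then 17 and 13 fragments after 30 min, 20 and 25 after 1 h, then 24 and 22 after 2 h.

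Gfi1 was the other gene with a start-site peak, and neither of its start-site regions was called. Gfi1_-308 (chr5:107725705-107726203) had 14 and 10 fragments in untreated cells, 27 and 18 after 30 min, 26 and 17 after 1 h, then 20 and 12 after 2 h, so that the libraries of 2 h overlapped those of 0 h (limma adjusted p = 0.77). Gfi1_+329 had 20 and 19 fragments in untreated cells against 16 and 17 after 2 h (adjusted p = 0.32). The strongest region of the locus was in a Gfi1 intron, Gfi1_+6088, and also had the largest positive change, with 19 and 12 fragments and then 37 and 27 (adjusted p = 0.087).

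Meis1 and Hoxa9 had no start-site peak. Meis1_+77618, an intron region, was the only region of Meis1 in all 8 lists, with 10 and 7 fragments in untreated cells against 7 and 10 after 2 h (limma adjusted p = 0.56). The regions of Hoxa9 lay near other genes of the cluster. Hoxa9_+4335, nearest to the Hoxa7 start site, had 13 and 12 fragments in untreated cells against 16 and 11 after 2 h (adjusted p = 0.74), and Hoxa9_+14430, in a Hoxa3 intron, had 10 and 6 and then 10 and 11 (adjusted p = 0.53). The libraries of 0 h and 2 h overlapped in fragments at both regions of Hoxa9. In percentile, both libraries of 2 h lay above both of 0 h at 1 of the 2 regions, where 40.6% of all tested regions did so.

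Among the receptors, Flt3 had 14 tested regions, of which 7 had a higher and 7 a lower mean percentile at 2 h than at 0 h. Flt3_-18100 (chr5:147418447-147418695) was the 1 region called lower at 2 h. It lay upstream of Flt3, nearest among coding genes to the start site of Pan3, and its window overlapped an exon of the non-coding gene D5Ertd605e. It had 54 and 34 fragments in untreated cells, 28 and 21 after 30 min, 27 and 24 after 1 h, then 18 and 18 after 2 h. All treated libraries were below both untreated ones. Its percentile went from 87.5 ± 3.5 to 59.2 ± 4.1 (SD, n = 2), a score difference of -1.36 ± 0.26 (SE, limma adjusted p = 0.0075). The call did not survive leaving out any 1 of the 8 libraries (limma adjusted p from 0.011 to 0.055) or ranking among all peaks of a list (0.019).

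The neighbour of that region, Flt3_-18446, had 75 and 34 fragments in untreated cells against 38 and 31 after 2 h and was not called (limma adjusted p = 0.25). Flt3_-10336 had the largest positive change of the 36, with 8 and 5 fragments in untreated cells, 14 and 8 after 30 min, 13 and 17 after 1 h, then 23 and 20 after 2 h, and did not pass the threshold (adjusted p = 0.013). In the introns, Flt3_+37232 had 58 and 38 fragments in untreated cells, 32 and 34 after 30 min, 35 and 20 after 1 h, then 24 and 26 after 2 h (adjusted p = 0.020). Flt3_+26676 had the most negative change in mean percentile of the 36, but its libraries of 2 h were far apart, with 6 and 15 fragments against 21 and 13 at 0 h (adjusted p = 0.21). The strongest region, Flt3_+67640, stayed near the top of the lists, with percentiles of 93.4 and 96.9 at 0 h and 88.8 and 96.9 at 2 h (adjusted p = 0.62).

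**Figure D3:**
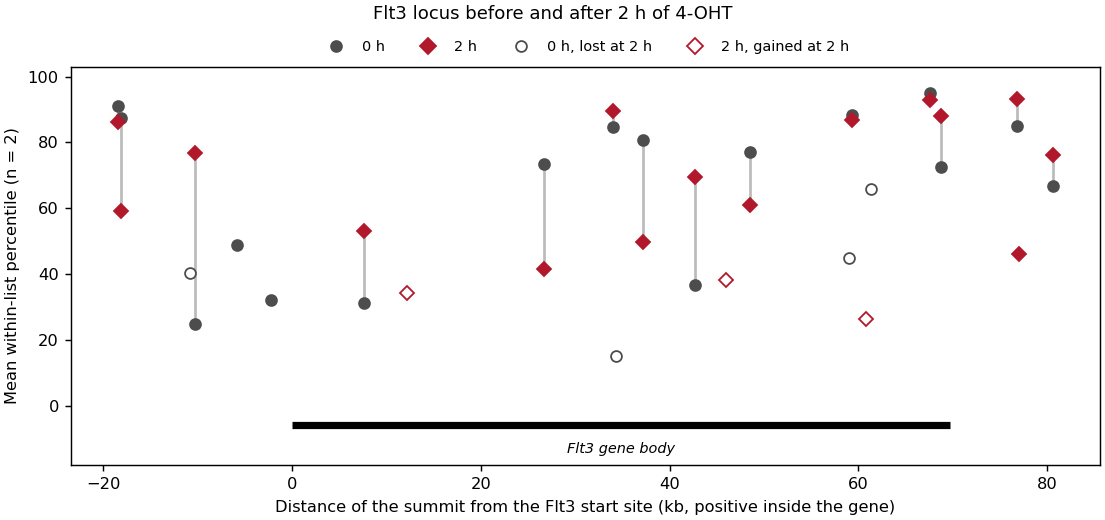
Mean within-list percentile (vertical axis, n = 2 libraries) of the regions of the Flt3 locus against the distance of their summit from the Flt3 start site (horizontal axis, kb), at 0 h (circles) and 2 h (diamonds), with lines joining the 14 regions in all 8 lists. Open circles are the 4 regions lost and open diamonds the 3 gained at 2 h, and 3 filled symbols without a line are regions with both peaks at 1 of the 2 times and 1 peak at the other. Regions with a higher and with a lower percentile at 2 h stood side by side, upstream and within the gene.

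Csf1r had 13 regions but only 1 in all 8 lists, and 7 were seen in 1 list. Csf1r_-13545 (chr18:61091919-61092164), upstream of the gene and between genes, had 16 and 14 fragments in untreated cells, 32 and 18 after 30 min, 35 and 29 after 1 h, then 51 and 43 after 2 h. Each treated library exceeded both untreated ones. Its percentile went from 69.6 ± 1.0 to 94.7 ± 0.5 (SD, n = 2), a score difference of 1.25 ± 0.29 (SE), which did not pass on ranks (limma adjusted p = 0.016). Csf1r_-14280, its neighbour, had no peak at 0 h, then 12 and 12 fragments after 30 min, 9 and 7 after 1 h, and 14 and 15 after 2 h.

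Cd34 had 2 tested regions, both high in every list. Cd34_+23485, in an intron of the non-coding gene Gm16897, had 32 and 21 fragments in untreated cells against 34 and 36 after 2 h, at percentiles of 90.7 and 84.3 and then 94.9 and 97.2 (limma adjusted p = 0.17). Cd34_+37448, in an exon of Gm16897, had 32 and 30 fragments in untreated cells against 43 and 46 after 2 h (adjusted p = 0.54).

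When recovered fragments over the background of each library, centred on the median of all regions, replaced the ranks, 5 of the 36 regions were higher at 2 h, where 5.43% of all tested regions were, and 1 was lower, where 9.37% of all were. On ranks the counts were 1 and 1. The 5 were Cebpb_-16404 (limma adjusted p = 0.00051), Csf1r_-13545 (0.0015), Flt3_-10336 (0.0020), Cebpb_-8838 (0.0031) and Flt3_+42748 (0.0093), and the lower one was Flt3_-18100 (0.00081).

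Presence or absence of a peak was counted next. A region was counted as lost when both 0 h lists and neither list of a later time had a peak in it, and as gained in the reverse case. A missing peak is one below the calling threshold and not closed chromatin, and lost and gained regions were counted without a test. Of the 47 regions in both 0 h lists, 4 were lost at 30 min (8.51%, against 10.9% over the series), 7 at 1 h (14.9%, against 14.6%) and 6 at 2 h (12.8%, against 16.6%). Gained regions were 6 of the 50 in both lists of 30 min (12.0%, against 10.3%), 12 of 52 at 1 h (23.1%, against 17.0%) and 12 of 57 at 2 h (21.1%, against 20.5%). Of the 6 lost at 2 h, 4 were at Flt3 and 1 each at Cebpb and Cd34. The 12 gained were spread over Spi1 and Flt3 (3 each), Meis1 (2), and Cebpb, Csf1r, Gfi1 and Cd34 (1 each). The lists of 2 h were also longer than those of 0 h. With every list cut to the same number of peaks, 8 were lost and 8 gained at 2 h, and the 12 gained at 1 h became 7. Where 1 library stood for a time, the counts grew by over 1.5 times without the first (11 lost at 1 h) or the second library of 0 h (9, 11 and 13 lost at the 3 times), the first of 30 min (7 lost, 11 gained), the second of 1 h (20 gained), the first of 2 h (10 lost, 21 gained) and the second of 2 h (20 gained).

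The 2 lost regions with over 20 fragments were both in Flt3 introns. Flt3_+61352 had 42 and 26 fragments at 0 h and 17 in the first library of 30 min, and no peak in the other 5 lists. Flt3_+58996 had 30 and 18 at 0 h and 16 in the first library of 30 min, and no peak in the other 5 lists. Between them, Flt3_+60779 had no peak at 0 h and then 24 and 23 fragments after 30 min, 30 and 20 after 1 h, then 20 and 24 after 2 h. The interval from Flt3_+58996 to Flt3_+61352 therefore held regions with opposite courses, while Flt3_+59290 in the same interval stayed at percentiles of 88.3 and 88.4 at 0 h and 87.4 and 86.4 at 2 h (limma adjusted p = 0.62).

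To include regions missing from some lists, all 126504 regions seen in at least 2 lists were fitted with the lowest rank imputed where a list had no peak. Of the 80 such regions at the 10 loci, 6 were lower at 2 h (7.5%, against 6.27% of all) and 2 were higher (2.5%, against 2.36% of all). A region with no peak at all in the lists of 0 h, or of 2 h, entered through its other lists and had to come out higher or lower, so no p is given for it and the counts are a description. Those higher were Cebpb_-16404 (limma adjusted p = 0.0083) and Meis1_+135032, in an untranslated exon at the end of Meis1, which had no peak at 0 h, 10 and 6 fragments after 30 min, 10 and 11 after 1 h, then 14 and 17 after 2 h.

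The lower ones were 3 regions of Flt3 and 1 each of Meis1, Cd34 and Gfi1. Meis1_+93638, in an intron, stood near the top of the 0 h lists with 33 and 23 fragments (percentiles 92.9 and 87.2). It had 12 and 14 fragments at 30 min, 8 and 5 at 1 h, and 6 and no peak at 2 h. Each treated library with a peak was below both of 0 h. The limma adjusted p was 0.0044 with 1 rank of 2 h imputed, so no conclusion is drawn from this p. Cd34_-12869, upstream of Cd34, had 11 and 9 fragments at 0 h and no peak in any of the 6 treated lists. Gfi1_-13423 had 20 and 9 fragments at 0 h, 6 and 7 at 30 min, no peak at 1 h, and 5 and no peak at 2 h (limma adjusted p = 0.0096, 3 ranks imputed). Both of its ranks at 1 h were imputed, so the imputation sets part of the spread behind this p, and no conclusion is drawn from it. The Flt3 regions were the lost Flt3_+61352 and Flt3_+58996, and Flt3_-10833 with 9 and 7 fragments at 0 h and no peak later.

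**Figure D4:**
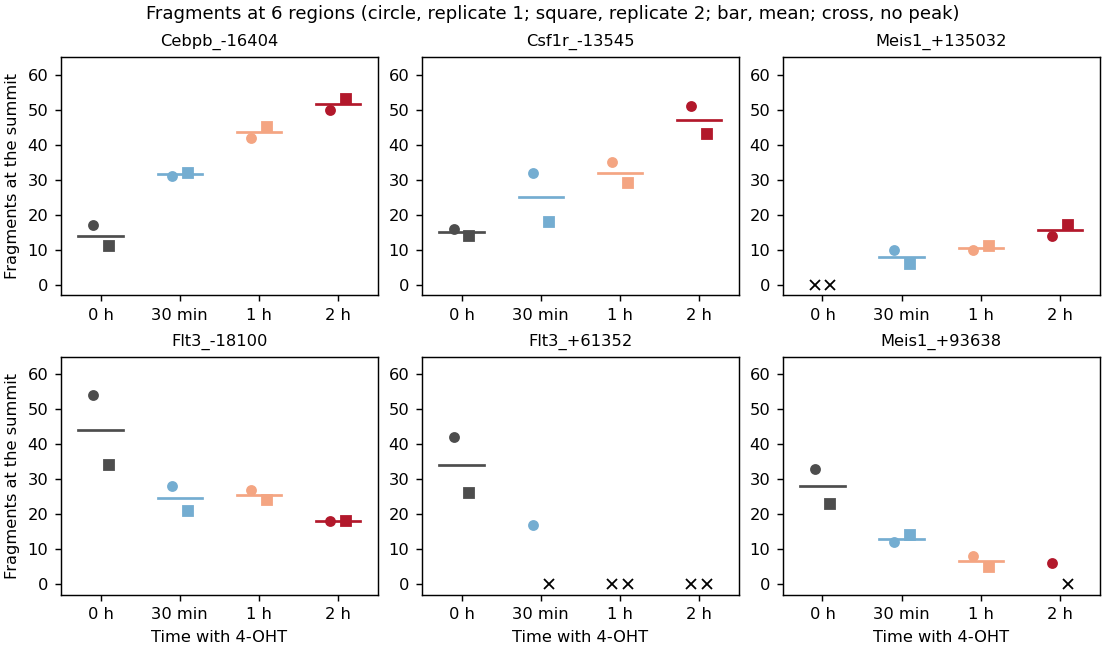
Fragments at the summit (vertical axis) by time with 4-OHT (horizontal axis) at 6 regions, 3 with more fragments at 2 h in the upper row and 3 with fewer in the lower row, with a symbol per replicate, a bar for the mean where both have a peak, and a cross on the baseline for a list without a peak, which is not a count of 0. Cebpb_-16404 went from 17 and 11 to 50 and 53 fragments and Meis1_+93638 from 33 and 23 to 6 and no peak.

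Each locus was then given the mean score of its tested regions and fitted beside 16930 protein-coding genes. At 2 h, none of the 9 loci with a tested region was called lower (0.484% of all genes were) or higher (0.278% of all were) by limma at an adjusted p of 0.01. With an unadjusted p under 0.05, 3 of the 9 were higher and 0 lower, and over all genes 2589 were higher and 2571 lower. The 3 were Csf1r, with a score difference of 1.25 ± 0.21 (SE, limma adjusted p = 0.019), Cebpa with 1.00 ± 0.19 (0.023) and Cebpb with 0.51 ± 0.12 (0.040). The differences of Csf1r and Cebpa rested on a single region each, and that of Cebpb on 6. On recovered fragments these 3 loci passed, where 2.67% of all genes were called higher and 4.24% lower, with limma adjusted p = 0.0029 for Csf1r, 0.0093 for Cebpa and 0.0018 for Cebpb. Fitted as a region, Cebpa_+5668 had the same difference on fragments, 0.92, and did not pass (limma adjusted p = 0.013). The locus fit borrows part of its spread from all genes, so the pass of the Cebpa locus adds nothing to that region. The other loci had differences of 0.46 ± 0.21 (Cd34), 0.12 ± 0.14 (Gfi1), 0.06 ± 0.14 (Hoxa9), -0.10 ± 0.15 (Flt3), -0.23 ± 0.13 (Spi1) and -0.31 ± 0.30 (Meis1), with limma adjusted p from 0.19 to 0.80.

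**Figure D5:**
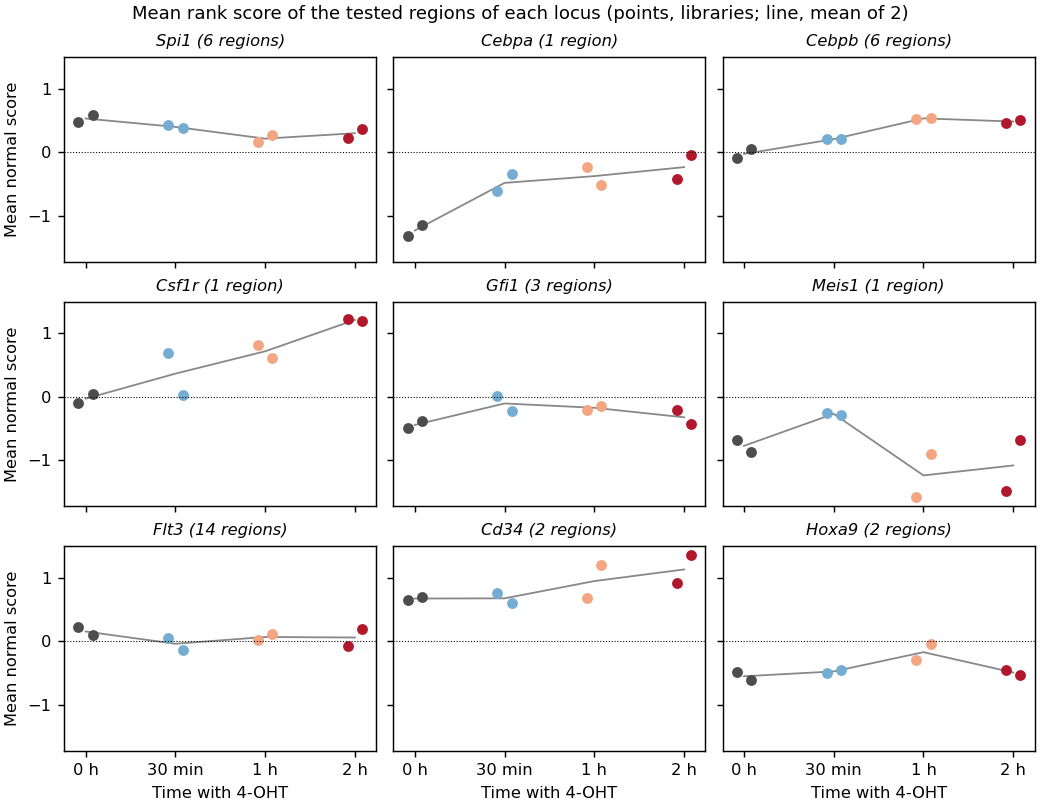
Mean normal score of the tested regions of a locus (vertical axis) by time with 4-OHT (horizontal axis), with a point for each library and a line through the means of 2, for the 9 loci with a tested region. Csf1r, Cebpa, Cebpb and Cd34 lay higher at 2 h than at 0 h in both libraries, with differences of 1.25, 1.00, 0.51 and 0.46. Spi1 lay lower in both, with a difference of -0.23, and the libraries of the other loci overlapped. The share of all gene loci without overlap was not counted.

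Other genes of the programmes were counted from lists. Regions of the 10 loci left out, of 57 tested regions near 18 stem and progenitor genes 3 were lower and 0 higher at 2 h, against 4.71% and 2.28% of all, and of 65 near 24 myeloid genes 4 were lower and 0 higher. With an unadjusted p under 0.05, 13 were lower and 8 higher of the former and 11 and 10 of the latter, where 17.4% of all tested regions were lower and 17.1% higher. By limma none of the 16 and 21 loci with tested regions was called in either direction, and at an unadjusted p under 0.05 1 and 5 were lower and 1 and 3 higher, where 15.2% of all genes were lower and 15.3% higher. These locus means include regions of the 10 loci where windows overlap: both tested regions of Hoxa7, and 2 of the 3 of Hoxa10, were the regions of Hoxa9 described above. Among stem cell factors the lower regions lay near Tal1, with 35 and 25 fragments in untreated cells against 8 and 8 after 2 h (limma adjusted p = 0.0016), Lyl1, with 117 and 81 and then 40 and 36 (0.0024), and Erg, with 52 and 35 and then 13 and 13 (0.0095). Among myeloid genes they lay near Irf8, a factor of monocytes and B cells, with 66 and 60 fragments in untreated cells against 19 and 9 after 2 h (limma adjusted p = 0.0022), Cebpe (0.0032), Egr2 (0.0035) and Cd14 (0.0082). Of these 7 genes the regions fell from mean percentiles of 46.95 to 96.2 at 0 h to 7.04 to 45.98 at 2 h. Start-site peaks in all 8 lists were found for 8 of the 18 stem genes (44.4%) and 8 of the 24 myeloid genes (33.3%). Over all protein-coding genes the share was 46.1%.

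The last summit inside the window of 20 kb lay 11406 to 18505 bp from the gene body and the first outside 20895 to 61610 bp from it, over the 10 genes. With 50 kb flanks, 62 regions were tested, and at 2 h limma called 3 lower and 3 higher.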

How the data were processed

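ATAC-seq of 8 libraries was deposited as 1 narrowPeak list per library. Per the labels the processing used BWA 0.7.17, SAMtools 1.9, deepTools 2.3.5, bedtools 2.27.1 and MACS2 2.1.2, with GRCm38 (mm10). The methods text names GRCh38, but peaks of all 21 chromosomes lay within GRCm38 lengths. The authors shifted ends for Tn5, kept short fragments and called peaks on each library alone. The deposited values are the fold of the pileup at the summit over background (a ratio), its −log10 p-value and −log10 q-value (lowest 1.3), and the summit.

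Overlapping peaks were merged into regions. Whole fragments at the summit were recovered from fold and −log10 p (5000 of 5000 simulated peaks were right). Normal scores of ranks were fitted with limma 3.58.1 (R 4.3.3), all 4 times in 1 model, in place of the study's count model, since a count table was not used here. On simulated data for 2 h against 0 h (47875 regions, 200 changed), 30.3% of shifts of 2, 95.2% of 3 and 98.6% of 4 were called, with 1 unchanged region. For 16930 genes these were 85.7%, 98.2% and 97%. With no change, none was called.

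The genes and lists were chosen with earlier results of these data known. Named regions are those called in any comparison, at each gene the start-site region, the strongest and the largest fall and rise, and lost or gained regions with over 20 fragments. Those called only with imputed ranks or on fragments, Spi1_-13022, Flt3_+37232, Flt3_+59290, Flt3_-18446, Csf1r_-14280, Cd34_+37448 and the Kit regions were named after their values were seen. Alternatives are in the closing section.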

Additional observations from a re-analysis of the deposited data

How the results depend on the processing

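Without 1 library, calls ran from 0 to 1 for regions lower at 1 h, 0 to 0 for higher at 1 h, 0 to 0 for lower at 2 h and 0 to 1 for higher at 2 h, the last 0 without any 1 library of 0 h or 2 h and the single lower call at 1 h without the second library of 2 h. Lost regions then ran from 4 to 9 at 30 min, 8 to 11 at 1 h and 6 to 13 at 2 h, gained regions 8 to 11 at 30 min, 13 to 20 at 1 h and 15 to 21 at 2 h, and the median percentile change at 2 h from 4.21 to 6.43 points.

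Replicate numbers are in the labels. Same-numbered libraries did not deviate together in rank scores (correlations 0.017 to 0.040 across regions), so no block was used in the results above. At each time the second library had fewer peaks and a lower background than the first. Ranks within a list set such differences aside, so the correlations do not bear on them. With a replicate block, 0 regions were higher at 1 h and 0 lower at 2 h, in place of 1 and 1, and no other call at the 10 loci changed. Joining summits within 100 bp gave 0 regions higher at 1 h. Ranking among all peaks of a list gave 0 lower at 2 h, and ranking by −log10 p moved the median change to 5.87 points, while percentiles among tested regions gave 7.09. On recovered fragments, 1 region was lower at 1 h, 5 were higher at 2 h and 3 loci were higher. Peaks of −log10 q of at least 5 gave 2 regions and 1 locus higher at 2 h. A trended, robust prior gave 3 regions higher at 2 h. Regions in at least 2 lists gave 5 lower at 1 h, and 6 lower and 2 higher at 2 h. An adjusted p under 0.05 gave 2 lower at 1 h, 2 lower and 4 higher at 2 h, and 3 loci higher. Gene bodies alone gave 0 regions higher at 1 h, 0 lower and 0 higher at 2 h, 1, 2 and 3 lost and 2, 7 and 6 gained at the 3 times, and a median change of -2.27 points. With 50 kb flanks there were 3 regions higher at 1 h, 3 lower and 3 higher at 2 h, 9, 11 and 10 lost, 19 gained at 2 h and a median change of 6.05 points. With over 20 fragments, 0, 2 and 2 regions were lost and 2, 2 and 2 gained. Lists of equal length gave 7 gained at 1 h. Where a setting changes the regions tested, its own construction changes the counts, and otherwise the cause was not tested. Of 247 alternatives over the 19 named tested regions, 14 ended a call at 2 h, 4 added one, and 9 gave the other sign, none of them at a called region. The median peak had 11 to 14 fragments, which limits what a single region can show. Simulated shifts of 2 in score were called in 30.3% of cases, with 200 regions changed. In the data 2256 regions were called lower and 1092 higher at 2 h, so that share is not the power of this fit.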
